A study of Mus musculus with 31 samples.

Results

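The region described here is the 740 kb of mouse chromosome 12 on the Mta1, Crip2, Crip1 and Tmem121 side of the immunoglobulin heavy chain (IgH) locus, chr12:113700001-114440000 of mm9. Its members are the peaks that overlap this interval by 1 base or more in any of 26 deposited peak lists, and there were 8994 of them among 17061930 peaks. The NIPBL lists held 6814 of these peaks and the Rad21 lists 2180. Because list length differed widely, most values use the 20000 peaks of each list with the highest -log10 p, of which 582 among 520000 lay in the flank, 179 in 10 NIPBL lists and 403 in 16 Rad21 lists. The interval was chosen by position and by no measured value.

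The lists come from chromatin immunoprecipitation followed by sequencing (ChIP-seq) in a study of cohesin loop extrusion during class switching at IgH. All cells were labelled AID-deficient, of C57BL/6 background, so the groups called unstimulated and stimulated both lack the enzyme that starts class switching. Splenic mature B cells were used without stimulation (3 NIPBL and 3 Rad21 libraries) or stimulated with anti-CD40 and IL-4 over 48 h (3 and 3). CH12F3, a mouse B lymphoma line titled CH12F3NCdel, was used without stimulation (2 NIPBL and 3 Rad21 libraries) or stimulated over 24 h with TGF-β, IL-4 and anti-CD40 (2 and 4). A line titled i3CBEs, with source name CH12F3, was used for Rad21 after the same 24 h of stimulation (3 libraries). The labels expand neither NCdel nor i3CBEs and do not say whether the lines are single clones. For the CH12F3 and i3CBEs Rad21 samples the cell type field reads splenic B cells, against their titles and source names, which were followed. Whether replicates are separate mice or cultures is not labelled, and p-values therefore describe the spread among these libraries alone, which could be technical. Spleen and CH12F3 differ in cell, time and cytokines at once, and these cannot be told apart after stimulation.

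Cohesin is a ring of proteins, with Rad21 as the subunit that closes it, and it folds chromosomes by reeling DNA into loops. NIPBL loads cohesin and drives its motion along DNA, and CTCF bound in a given orientation holds moving cohesin, so that Rad21 peaks often mark CTCF sites while NIPBL is often found at active promoters and enhancers. Downstream of the IgH constant region genes lie the 3′ regulatory region and a cluster of CTCF binding elements, and the flank begins beyond them. Mta1 encodes a subunit of the NuRD chromatin remodelling complex, Crip1 and Crip2 encode small cysteine-rich LIM domain proteins, and Tmem121 encodes a transmembrane protein.

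By order in the RefSeq annotation of GRCm38.p6, the genes running from Pacs2 toward IgH are Pacs2, Tex22, Mta1, F930026P19Rik, Crip2, Gm30599, Crip1, Tedc1, Tmem121 and Gm25622, and then Igha, the constant region gene of IgA. Genes farther from IgH than Pacs2 are not listed, so the list may not span the flank. No mm9 annotation was used here, so the peaks below are given by mm9 position and were not assigned to a gene. The promoters of the 4 genes that name the flank are shown for these genes alone and do not stand for the whole 740 kb. Each runs from 250 bases before to 50 after the start in GRCm38.p6 (RefSeq), on the plus strand, and Crip2 has a further promoter that is not shown. Capitals mark CpG dinucleotides, the sites at which DNA can be methylated and which are dense in many promoters of widely expressed genes.
Mta1: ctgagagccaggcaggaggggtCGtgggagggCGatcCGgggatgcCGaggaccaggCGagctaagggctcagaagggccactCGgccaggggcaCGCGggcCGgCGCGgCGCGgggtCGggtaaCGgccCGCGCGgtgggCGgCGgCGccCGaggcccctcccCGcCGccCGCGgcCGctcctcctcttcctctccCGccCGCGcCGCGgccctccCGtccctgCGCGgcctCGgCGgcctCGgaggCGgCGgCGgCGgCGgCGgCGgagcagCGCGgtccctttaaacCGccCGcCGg
Crip2: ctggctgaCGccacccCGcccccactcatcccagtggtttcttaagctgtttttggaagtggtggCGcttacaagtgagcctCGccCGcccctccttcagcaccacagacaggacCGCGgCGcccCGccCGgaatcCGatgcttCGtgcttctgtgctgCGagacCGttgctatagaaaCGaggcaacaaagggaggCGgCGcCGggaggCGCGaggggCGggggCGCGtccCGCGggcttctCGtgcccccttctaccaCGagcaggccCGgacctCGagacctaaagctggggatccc
Crip1: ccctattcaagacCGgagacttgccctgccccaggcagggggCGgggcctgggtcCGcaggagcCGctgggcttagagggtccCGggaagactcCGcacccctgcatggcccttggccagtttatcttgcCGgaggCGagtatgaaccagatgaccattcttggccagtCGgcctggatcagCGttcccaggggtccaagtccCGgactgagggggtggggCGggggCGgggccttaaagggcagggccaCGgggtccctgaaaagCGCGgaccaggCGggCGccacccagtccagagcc
Tmem121: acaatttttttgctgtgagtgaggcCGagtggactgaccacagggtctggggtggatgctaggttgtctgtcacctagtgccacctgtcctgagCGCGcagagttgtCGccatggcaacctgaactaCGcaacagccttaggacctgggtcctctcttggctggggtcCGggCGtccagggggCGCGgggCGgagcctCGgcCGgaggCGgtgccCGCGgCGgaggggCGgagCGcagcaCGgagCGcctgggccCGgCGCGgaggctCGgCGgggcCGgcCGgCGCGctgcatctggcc

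These 300 bases lie at chr12:113098028-113098327 for Mta1, chr12:113139986-113140285 for Crip2, chr12:113151762-113152061 for Crip1 and chr12:113185653-113185952 for Tmem121, all in GRCm38.p6 and not in mm9. G and C made up 81.0% of the Mta1 window, 66.3% of the Crip2 window, 68.3% of the Crip1 window and 70.0% of the Tmem121 window, against a median of 52.7% over 32851 mouse promoters. The Mta1 window held 50 CpG dinucleotides, the Crip2 and Tmem121 windows 29 each and the Crip1 window 18, against a median of 7. Of all promoters, 29.7% held 18 or more and 0.855% held 50 or more.

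The flank was dense in peaks of both proteins. The 20000 strongest peaks covered between 2.10 and 9.45 times the genome-wide share of bases in the NIPBL libraries (median 5.20) and between 2.77 and 5.21 times in the Rad21 libraries (median 3.88). Rad21 peaks touched 32 of the flank's 74 bins of 10 kb in 1 or more libraries, 43.2% against 15.2% of the 264200 bins of the genome. They touched 13 bins, 17.6% against 3.32% in the genome, in all 16 libraries. NIPBL peaks touched 53 bins in 1 or more libraries, 71.6% against 36.0%, but a single bin, 1.35% against 0.782%, in all 10.

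Rad21 peaks were narrow and recurred at the same places. Merging overlapping top peaks over libraries gave 39 Rad21 sites, numbered from the end far from IgH toward IgH, with a median width of 773 bp. Every library held 21 to 30 peaks there. All 16 libraries held a peak at 14 of the 39 sites, 35.9%, beside a background of 19.6% of all merged Rad21 sites in the genome, and 1 library alone held 6 sites, against a background of 33.4%. The 14 sites were a median of 29.0 kb apart, and the widest stretch between them, chr12:114114472-114243037, was 129 kb long. The count depends on the number of peaks taken: with 10000 per list, 3 sites were held by all libraries (11.5% of the flank's sites, 19.9% in the genome), and with 40000 it was 22 (21.8% and 7.52%).

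Site 20, chr12:114081747-114082611, was the strongest Rad21 site of the flank by its median rank, 403.5, where rank 1 is the peak with the highest -log10 p of a list. Its ranks were 517, 290 and 1428 in unstimulated spleen, 282, 69 and 235 in stimulated spleen, 609, 647 and 125 in unstimulated CH12F3, 185, 218, 1257 and 83 in stimulated CH12F3 and 718, 523 and 1313 in i3CBEs. A rank places a peak within its own list, and lists differ in length and makeup, so ranks are given as descriptions. The authors' fold enrichment over background at this site ran from 13.7 to 40.8. Site 15, chr12:113984545-113985897, came next, with a median rank of 1125.5, a best rank of 72 in unstimulated splenic replicate 1 and a fold enrichment of 9.84 to 51.2. Sites 2 (chr12:113780936-113781708) and 3 (chr12:113790079-113791030) followed, with median ranks of 1671.5 and 2837.5. The other 10 sites held by all libraries had median ranks between 5845.5, at site 9 (chr12:113891202-113892059), and 11924.5, at site 13 (chr12:113955158-113955784).

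**Figure D1:**
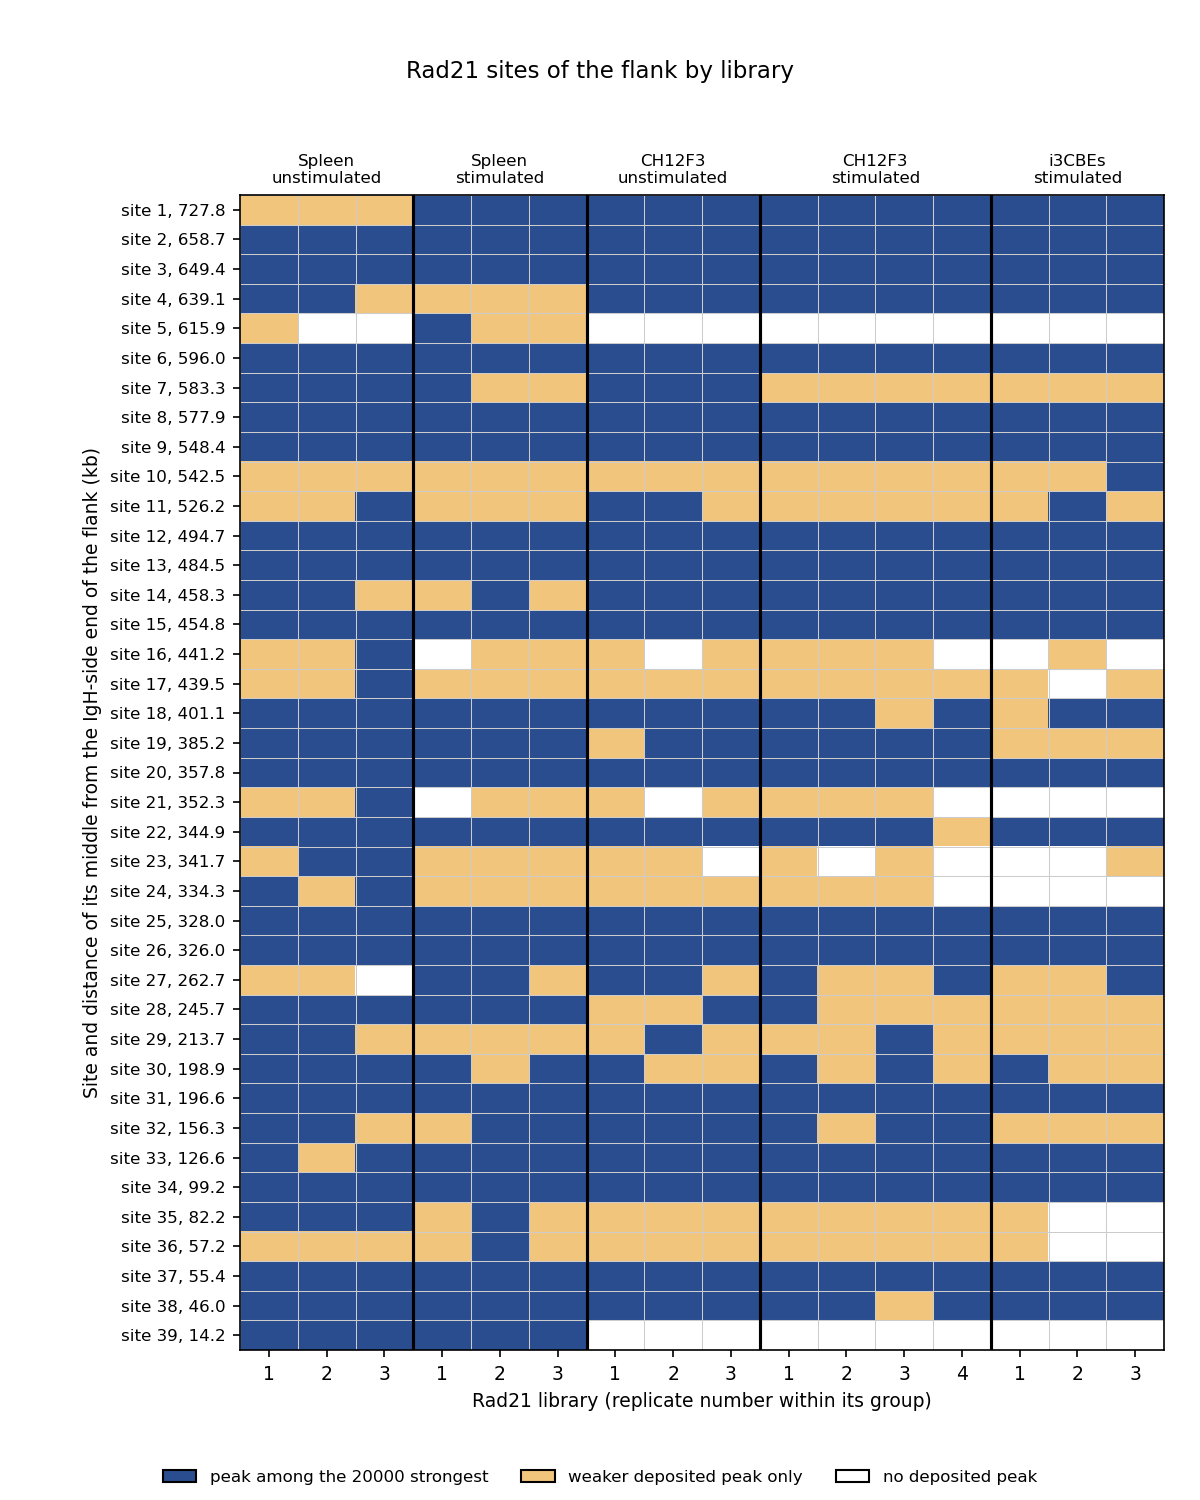
Presence of a Rad21 peak at each of the 39 merged sites (vertical axis, with the distance of the site's middle from the IgH-side end of the flank in kb) in 16 libraries (horizontal axis, by group and replicate). Blue cells are peaks among the 20000 strongest of the list, yellow cells are deposited peaks of lower rank and white cells have no deposited peak. Site 39, 14.2 kb from the end, is blue in all 6 splenic libraries and white in all 10 CH12F3 and i3CBEs libraries.

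Spleen and the CH12F3 lines differed most plainly at the IgH end of the flank. Site 39, chr12:114425389-114426205, ranked 11477, 10092 and 4190 in unstimulated spleen and 9956, 9302 and 7353 in stimulated spleen. None of the 3 unstimulated CH12F3, 4 stimulated CH12F3 and 3 i3CBEs lists held any deposited peak at this site, at any rank. Held by all 6 splenic and by none of the other 10 libraries, it was 1 of 39 flank sites of this kind, beside 0.671% of merged Rad21 sites in the genome. There were 0 of 26 with 10000 peaks per list (1.25% in the genome) and 1 of 101 with 40000 (0.176%). The fold enrichment was 11.7, 11.8 and 9.71 in unstimulated and 6.06, 12.7 and 9.84 in stimulated spleen.

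In the 10 kb bin that holds site 39, chr12:114420001-114430000, Rad21 peaks covered 6.92%, 6.02% and 3.66% in unstimulated spleen (5.53% ± 1.68, SD, n = 3) and 0% in all 3 unstimulated CH12F3 libraries. The difference passed the test (limma with Benjamini-Hochberg adjustment over the genome, difference 5.53 ± 0.783 points, SE, adjusted p = 0.000154). After stimulation the bin was covered to 4.36%, 6.16% and 4.43% in spleen (4.98% ± 1.02, n = 3) and to 0% in all 4 CH12F3 libraries (limma adjusted p = 0.00106). Bins covered in spleen and not in CH12F3 mean that no strong peak was listed there, not that no Rad21 was bound. The unstimulated call was lost with 10000 peaks per list (adjusted p = 0.328), with all deposited peaks (0.183) and with lists matched for covered length (0.509), and the stimulated call with a -log10 q of 5 or more (0.0576) and with matched length (0.102). The difference kept its sign under each of these.

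The stretch from the end of site 38 to the end of the flank, chr12:114394829-114440000, is 45.2 kb long. It held 4, 17 and 3 Rad21 peaks of any rank in unstimulated spleen, 5, 21 and 24 in stimulated spleen, 1, 2 and 3 in unstimulated CH12F3, 1, 1, 3 and 0 in stimulated CH12F3 and 0, 0 and 0 in i3CBEs. These counts move with the length of the lists: the 17, 21 and 24 peaks come from lists of 1166191 to 1236385 peaks, the other splenic lists hold 149409 to 292078 peaks, the CH12F3 lists 95464 to 271662 and the i3CBEs lists 42659 to 97738. The strongest peak there in a CH12F3 list ranked 54579. The NIPBL lists of CH12F3 held 40 and 45 peaks of any rank there without and 41 and 43 with stimulation, beside 32 to 43 in spleen. NIPBL lists are long, 890499 to 1332862 peaks, and i3CBEs had none. Why Rad21 peaks were few in the lines was not tested. At site 38 (chr12:114393202-114394828), the next Rad21 site away from IgH, all 6 splenic libraries and 9 of 10 others held a top peak.

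**Figure D2:**
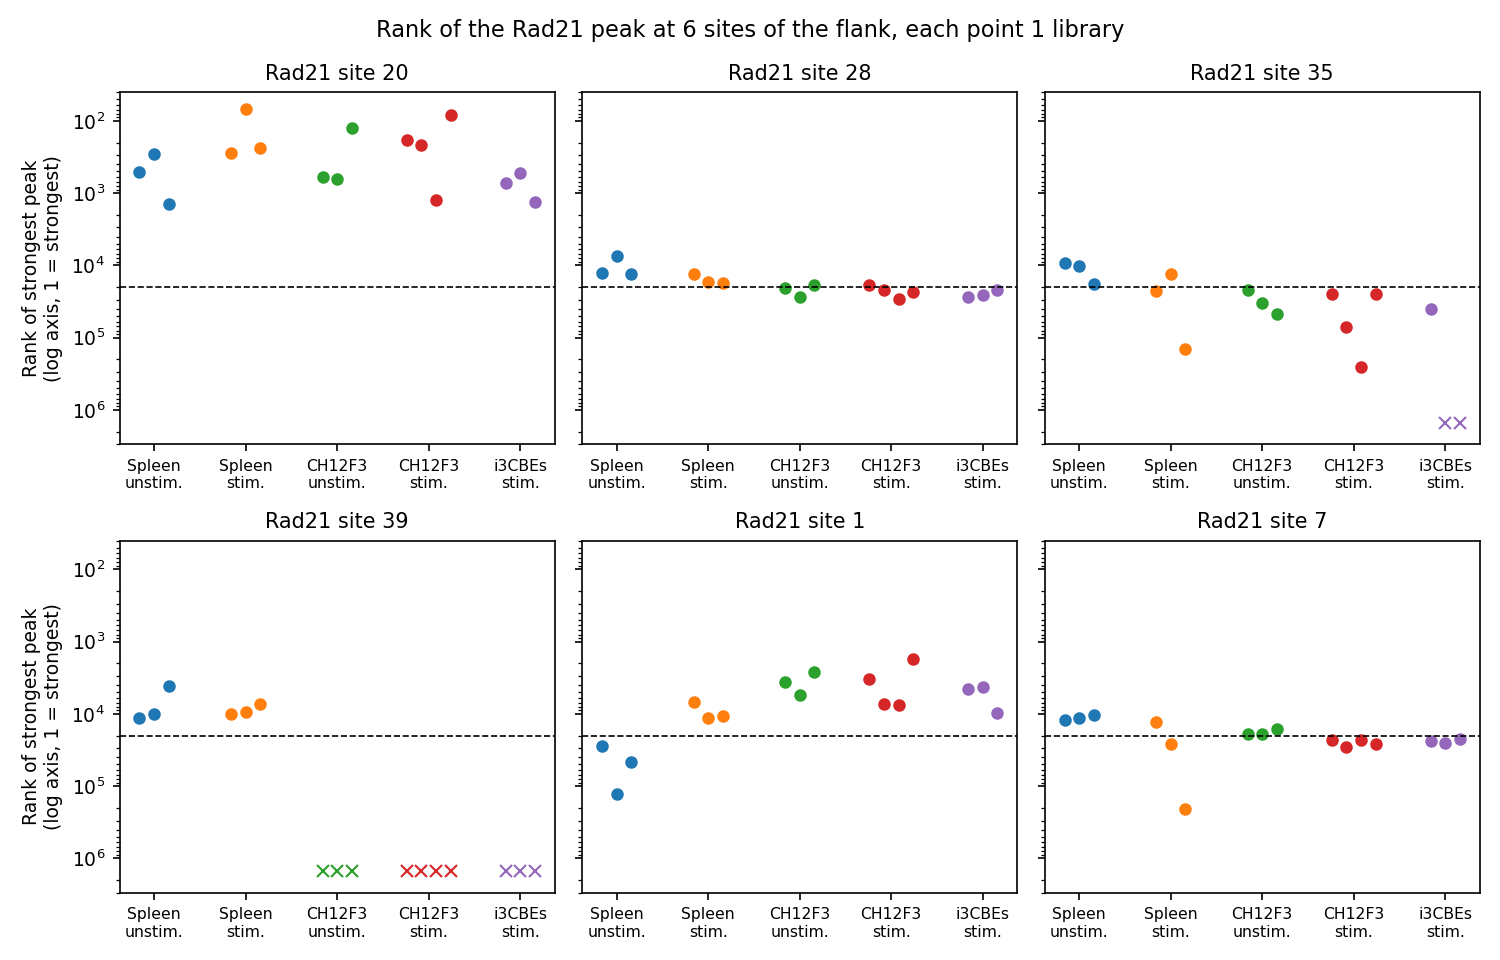
Rank of the strongest Rad21 peak (vertical log axis, 1 is the strongest) at 6 sites, 1 point per library and 5 groups on each horizontal axis. The dashed line is rank 20000 and a cross stands for a list with no deposited peak. Site 20 ranked 1428 or better in every library, and site 39 has crosses in all CH12F3 and i3CBEs libraries.

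Over the whole flank, limma called 5 of 29 tested bins between unstimulated spleen and unstimulated CH12F3, 3 higher and 2 lower in spleen, where 27% of all tested bins in the genome were called (15.6% higher and 11.5% lower). After stimulation it called 3 of 29, 2 higher and 1 lower, where 8.24% of all tested bins were called (3.8% higher and 4.43% lower). These shares lie close to or below the background. The splenic groups and the CH12F3 groups of these comparisons also enter the comparisons of stimulation below.

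Site 35, chr12:114357502-114358192, was held by 4 of 6 splenic libraries and by none of the other 10. Its ranks were 9233, 10397 and 18045 in unstimulated spleen and 22998, 13290 and 145541 in stimulated spleen. CH12F3 and i3CBEs ranks ran from 22087 to 251970, with no peak in 2 of 3 i3CBEs lists, so weak peaks were listed in CH12F3. The bin chr12:114350001-114360000 was covered to 6.07%, 5.87% and 1.88% in unstimulated spleen and to 0% in unstimulated CH12F3 (limma adjusted p = 0.00264), and this call was lost with 40000 peaks (0.107), with all deposited peaks (0.627) and under the -log10 q minimum of 5 (0.201). At site 28, chr12:114193914-114194760, all 6 splenic libraries held a top peak, between ranks 7358 and 17711, and in CH12F3 and i3CBEs the ranks ran from 18570 to 28902. Its bin, chr12:114190001-114200000, was covered to 3.71%, 6.25% and 6.28% in stimulated spleen and to 3.44%, 0%, 0% and 0% in stimulated CH12F3 (limma adjusted p = 0.00962; 0.097 with 40000 peaks and 0.556 with a -log10 q of 5 or more).

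Other bins went the opposite way. Site 1, chr12:113711797-113712609, at the end of the flank far from IgH, ranked 28262, 129521 and 47136 in unstimulated spleen, all outside the 20000 strongest, and 3670, 5504 and 2678 in unstimulated CH12F3. The fold enrichment was 6.06, 4.85 and 3.78 against 17.7, 14.1 and 19.6. Neither ranks nor folds of the groups overlapped, and covered percents without overlap and lower in spleen were found for 15.5% of tested bins in the genome. The bin chr12:113710001-113720000 was covered to 0% in the 3 splenic libraries and to 3.67%, 5.01% and 4.92% in CH12F3 (limma adjusted p = 0.0135; 0.0744 with 40000 peaks, 0.607 with all peaks and 0.224 with a -log10 q of 5 or more). Site 4, chr12:113800624-113801170, was held by all 10 CH12F3 and i3CBEs libraries, at ranks from 8140 to 16333, by 2 of 3 unstimulated splenic and by none of 3 stimulated splenic libraries. Its bin, chr12:113800001-113810000, was covered to 0% in stimulated spleen and to 3.23% ± 0.253 (n = 4) in stimulated CH12F3 (limma adjusted p = 0.0260). That call ended without stimulated CH12F3 replicate 1, 3 or 4 or stimulated splenic replicate 2 or 3 (adjusted p 0.0519 to 0.0631), its sign turned with 40000 and with all peaks, and 4 of 14 alternatives kept it.

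The remaining pair of called bins was weaker. The bin chr12:114100001-114110000, with site 24, was covered to 7.27%, 0% and 3.81% in unstimulated spleen and to 0% in unstimulated CH12F3 (limma adjusted p = 0.0277), and leaving out any 1 of the CH12F3 libraries ended the call (0.0630 to 0.0697), as did taking all peaks (0.515). The bin chr12:114310001-114320000, with site 33, was covered to 5.86%, 0% and 2.75% in spleen and to 5.67%, 6.05% and 8.28% in CH12F3 (limma adjusted p = 0.0462), but the groups overlapped and 1 of 13 alternatives kept the call.

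Stimulation of splenic B cells left the Rad21 sites of the flank without a called change. Limma called 0 of 28 tested bins, beside 2.82% of tested bins in the genome, and without adjustment p was under 0.05 for 1 bin higher and 3 lower. Sites 1 and 7 led. Site 1 ranked 6981, 11278 and 10584 in stimulated spleen against 28262, 129521 and 47136 without stimulation, and its bin was covered to 2.51%, 8.13% and 2.49% against 0% (unadjusted 0.0211, limma adjusted p = 0.181). Site 7, chr12:113855970-113857365, ranked 13106, 26075 and 205174 after stimulation against 12162, 11307 and 10435 before, and its bin chr12:113850001-113860000 was covered to 3.21%, 0% and 0% against 5.95%, 12.2% and 3.51% (unadjusted 0.0262, limma adjusted p = 0.207). Without unstimulated replicate 3, 2 bins of the flank were called.

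In CH12F3 the bin of site 7 was the single call among 26 tested in the main fit, which is unpaired. It was lower after stimulation, where 0.0262% of tested bins in the genome were called. Site 7 ranked 19301, 18799 and 16502 without stimulation and 23387, 28888, 22994 and 25991 with it, so the peak was listed in all 7 libraries and crossed rank 20000. The bin was covered to 5.13%, 3.97% and 5.77% without and to 0% in all 4 libraries with stimulation (difference -4.96 ± 0.485 points, SE, limma adjusted p = 0.0261). Same-numbered CH12F3 samples deviated together, which the main fit ignores. With the replicate number as a block the call was lost (limma adjusted p = 0.225). That block also joined the i3CBEs libraries of the same fit by number. Their correlations with same-numbered stimulated CH12F3 libraries were 0.103, 0.00545 and -0.0741. A fit paired within CH12F3 alone was not run, and a change with stimulation was not shown at this bin. The unpaired call was not robust either. That call was also lost without unstimulated replicate 3 (0.0637), without stimulated replicate 1, 2 or 3 (0.0554 to 0.0636) and with 40000 peaks (0.982), and 4 of 12 alternatives kept it. The effect of stimulation on Rad21 was not shown to differ between spleen and CH12F3 at any flank bin: limma's interaction term called 0 of 29, beside 5.89% in the genome, without adjustment p was under 0.05 for 2 bins in each direction, and the smallest adjusted p was 0.0710, at the bin of site 1.

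Between i3CBEs and stimulated CH12F3 no tested bin passed. Limma called 0 of 26, beside 0.411% in the genome, and without adjustment p was under 0.05 for 0 bins higher and 3 lower. All 3 i3CBEs lists held a top peak at sites 1 and 4. At site 19, chr12:114054378-114055231, i3CBEs ranks were 25873, 28003 and 23307 against 15598, 14597, 18196 and 16196 in stimulated CH12F3, and the bin chr12:114050001-114060000 was covered to 0% against 3.65%, 2.07%, 3.88% and 2.28% (unadjusted 0.0155, limma adjusted p = 0.187). At the bin chr12:114380001-114390000, with site 37, it was 2.40%, 2.32% and 2.18% against 3.65%, 3.62%, 2.61% and 3.65% (unadjusted 0.0511, limma adjusted p = 0.246). In both bins the groups did not overlap, which held with i3CBEs lower for 23.1% of tested bins in the genome. The 20000 strongest peaks were shorter in i3CBEs, with medians of 238 to 281 bp against 300 to 444 bp in stimulated CH12F3, and the lists of i3CBEs covered less of the genome. With lists matched for covered length, 1 bin of the flank was called, higher in i3CBEs.

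NIPBL peaks in the flank repeated less, and only their recurrent sites were wider than those of Rad21. There were 84 merged NIPBL sites, of which 16 were held by 3 or more of the 10 libraries, and 59, 70.2%, by 1 library alone, beside a background of 86.5% of merged NIPBL sites in the genome. The 16 recurrent sites had a median width of 1972.5 bp, beside 847 bp for the 31 Rad21 sites held by 3 or more libraries. All 84 NIPBL sites had a median width of 454.5 bp, beside 773 bp for all 39 Rad21 sites. Site 26, chr12:113930552-113932437, was the single NIPBL site held by all libraries, beside a background of 1.49% in the genome. It ranked 5246, 5455 and 9396 in unstimulated spleen, 2382, 3229 and 1932 in stimulated spleen, 868 and 302 in unstimulated CH12F3 and 2337 and 3756 in stimulated CH12F3. The fold enrichment was 15.3, 14.2 and 9.81 in unstimulated spleen, 10.8, 8.97 and 12.6 in stimulated spleen, 14.7 and 17.3 in unstimulated CH12F3 and 10.7 and 9.29 in stimulated CH12F3. Ranks and folds order the splenic groups differently, and the cause was not tested. No Rad21 site of the flank overlapped site 26.

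Sites 14 (chr12:113853832-113860605), 34 (chr12:113998346-114000938) and 49 (chr12:114098260-114099780) were held by 9 of 10 NIPBL libraries. Site 14 was the widest, 6774 bp, a width set by 1 peak of unstimulated CH12F3 replicate 1, and its median peak width was 858 bp. This site overlapped Rad21 site 7. It held the best NIPBL rank of the flank, 129 in stimulated CH12F3 replicate 2, and ranked 23745 in stimulated splenic replicate 1. Sites 18 (chr12:113882499-113884132), 42 (chr12:114066467-114068318) and 79 (chr12:114392957-114396330) were held by 8, each by all 6 splenic libraries. At these 3 sites the CH12F3 libraries with a top peak were replicate 1 of each condition, and replicate 2 had weaker peaks only.

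The CH12F3 NIPBL replicates were unlike each other. Of the top NIPBL peaks of one unstimulated CH12F3 library in the flank, 20.4% (range 10.7% to 30.0%) overlapped those of the other by 1 base or more, and 25.7% with stimulation, against 67.1% and 61.4% within unstimulated and stimulated spleen. The same shares over the whole genome were 20.5% and 14.6% in CH12F3 and 46.1% and 49.1% in spleen. The unlikeness is thus one of the whole lists and not of the flank. Replicate 1 had no named control in its lists and replicate 2 had one. The flank was covered to 6.10% and 0.425% in unstimulated replicates 1 and 2 and to 2.17% and 0.490% in stimulated ones. Each result on CH12F3 NIPBL below rests on these 2 unlike libraries a group.

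**Figure D3:**
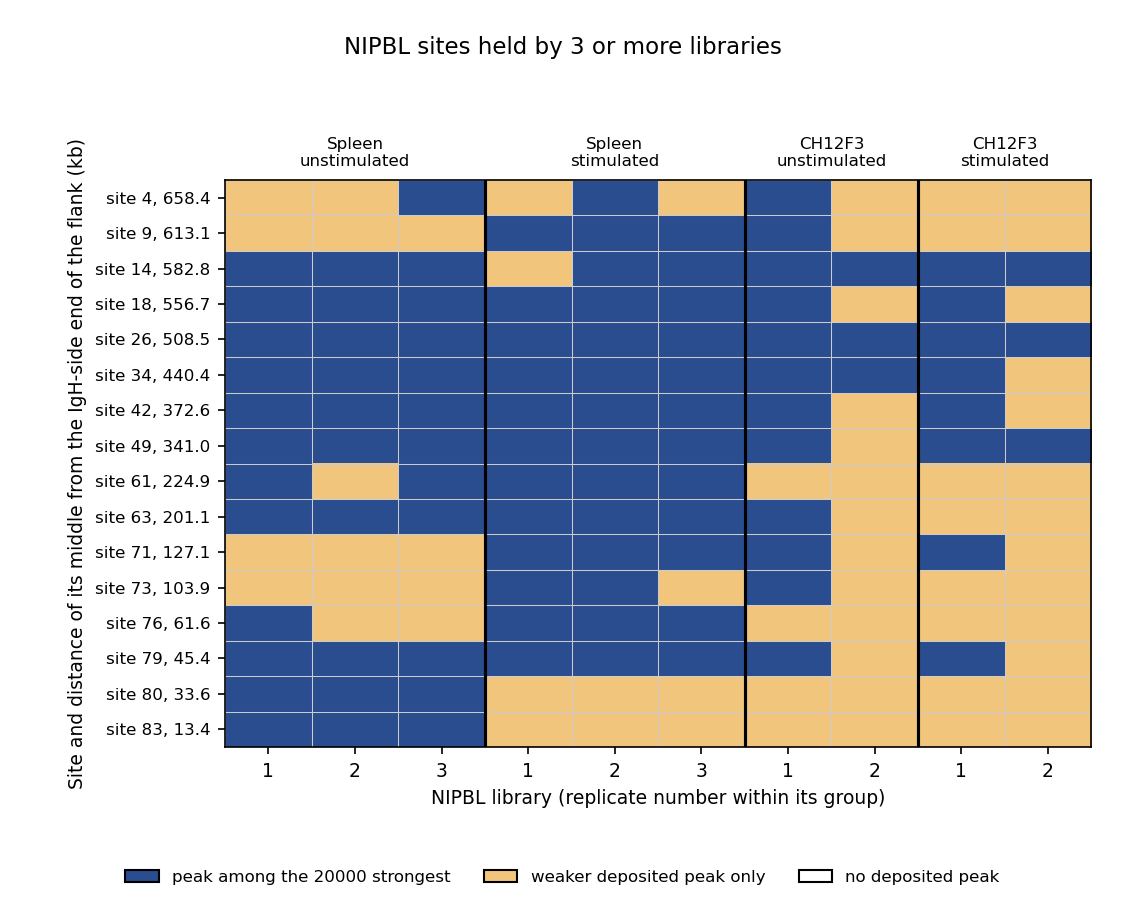
Presence of a NIPBL peak at the 16 merged sites held by 3 or more libraries (vertical axis, with the distance of the site's middle from the IgH-side end of the flank in kb) in 10 libraries (horizontal axis, by group and replicate). Blue cells are peaks among the 20000 strongest and yellow cells are deposited peaks of lower rank. Sites 80 and 83, nearest to IgH, are blue in the 3 unstimulated splenic libraries only.

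Of the NIPBL sites held by 3 or more libraries, those nearest to IgH, sites 80 and 83, had their top peaks in unstimulated spleen. Site 80, chr12:114405589-114407119, ranked 5855, 3715 and 15353 in unstimulated spleen and 20660, 67508 and 30420 in stimulated spleen. Site 83, chr12:114425677-114427505, which overlaps Rad21 site 39, ranked 7242, 5411 and 8368 in unstimulated and 22713, 68507 and 21248 in stimulated spleen. In CH12F3 the ranks were 25220 or later at site 80 and 150843 or later at site 83, and every list held some peak. The fold enrichment at site 80 was 13.8, 16.5 and 8.59 in unstimulated and 6.41, 4.79 and 6.14 in stimulated spleen, and at site 83 it was 11.9, 13.8 and 9.96 against 6.34, 4.77 and 6.73. By rank and by fold, the unstimulated splenic libraries lay above every other NIPBL library at both sites. Top peaks in these 3 lists alone already fix the order by rank. Fold comes from the same peaks, so neither order adds support. Sites held by all unstimulated and no stimulated splenic NIPBL libraries were 2 of 84 in the flank, beside 0.308% in the genome. With 10000 peaks per list they were 1 of 32 (1.11% in the genome) and with 40000 they were 0 of 171 (0.126%).

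Between stimulated and unstimulated spleen limma called 1 of 25 tested NIPBL bins, the bin of site 80, lower after stimulation, where 2.99% of tested bins in the genome were called, 1.24% of tested bins in this direction. The bin chr12:114400001-114410000 was covered to 15.2%, 9.30% and 14.5% without stimulation (13.0% ± 3.21, n = 3) and to 0% in all 3 libraries with it (limma adjusted p = 0.0239). The call was lost without any of the stimulated libraries or unstimulated replicate 3 (0.0555 to 0.0611), 4 of 13 alternatives kept it, and with all deposited peaks the difference turned to 12.1 points higher after stimulation. The bin of site 83 was covered to 17.6%, 6.52% and 11.2% without and to 1.63%, 0% and 0% with stimulation (limma adjusted p = 0.165).

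In the other direction, sites 9 (chr12:113825365-113828479) and 71 (chr12:114311422-114314286) held a top peak in all 3 stimulated and no unstimulated splenic libraries, 2 of 84 beside 0.387% in the genome. This count was 0 of 32 with 10000 peaks per list (0.914% in the genome) and 0 of 171 with 40000 (0.254%). Site 9 ranked 10973, 12518 and 5372 after stimulation against 37207, 36272 and 39588 before, but its fold enrichment was 7.31, 6.29 and 9.69 against 6.79, 8.59 and 7.09, with the groups overlapping. Site 71, which overlaps Rad21 site 33, ranked 9807, 8934 and 10622 against 20063, 34676 and 52894, and its fold enrichment, 7.54, 6.87 and 7.90 against 7.68, 8.68 and 6.83, overlapped too. Their bins did not pass the test. The bin chr12:114310001-114320000 was covered to 12.7%, 25.2% and 13.2% against 0%, 0.51% and 0% (limma adjusted p = 0.0869), and the bin chr12:113820001-113830000 to 11.5%, 23.8% and 12.5% against 0% (limma adjusted p = 0.0935).

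Limma called 0 of 14 NIPBL bins between stimulated and unstimulated CH12F3, beside 0% in the genome, and without adjustment p was under 0.05 for 1 bin, lower. That was chr12:114000001-114010000, with site 34, covered to 0% and 0% after and to 8.24% and 9.38% before stimulation (unadjusted 0.0259, limma adjusted p = 0.353). The bin edge cuts site 34: stimulated CH12F3 replicate 1 had a top peak of this site, rank 18637, at chr12:113998402-113999322, in the neighbouring bin. Between unstimulated spleen and CH12F3 it called 1 of 34, the bin of site 80, higher in spleen, beside 2.18% in the genome, 1.19% higher (13.0% ± 3.21, n = 3, against 0% and 0%, limma adjusted p = 0.0178). Its sign turned with 40000 peaks, with all peaks and with a -log10 q of 5 or more, and 6 of 12 alternatives kept the call. After stimulation it called 1 of 34, the bin chr12:114000001-114010000, higher in spleen, beside 3.82% in the genome, 2.4% higher (7.72%, 8.54% and 7.31% against 0% and 0%, limma adjusted p = 0.0319), and 1 of 12 alternatives kept it. In the neighbouring bin, chr12:113990001-114000000, which holds the other part of site 34, coverage was 3.31% in stimulated spleen and 4.61% in stimulated CH12F3 on average, so the call is one of that bin and not of the site. The interaction of stimulation and cell was called by limma at 0 of 34 bins for NIPBL, beside 0.00972% in the genome, and without adjustment p was under 0.05 for 4 bins in the direction of spleen and 2 in the other, with a smallest adjusted p of 0.122 at the bin of site 80.

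Top peaks of NIPBL and Rad21 overlapped in part. Of the top Rad21 peaks of a library in the flank, a mean of 23.3% in unstimulated and 12.4% in stimulated spleen overlapped a top NIPBL peak of a library of the same group, and 13.5% and 5.80% in CH12F3. Conversely, 37.2% and 15.4% of NIPBL peaks in spleen and 15.7% and 10.9% in CH12F3 overlapped a Rad21 peak. Over the whole genome the same shares were 13.9%, 8.48%, 8.42% and 4.72% of Rad21 peaks and 14.0%, 8.46%, 8.46% and 4.74% of NIPBL peaks. The flank's means were above the genome's in all 8 cases, which was not tested. Within a group, Rad21 libraries shared 87.5% to 92.5% of their flank peaks with each other and NIPBL libraries 20.4% to 67.1%. Genome-wide, the group means were 75.4% to 89.6% for Rad21, without i3CBEs, and 14.6% to 49.1% for NIPBL. Of the 14 sites held by all Rad21 libraries, 9 overlapped any merged NIPBL site, as did 23 of all 39 Rad21 sites. Of the 16 recurrent NIPBL sites, 7 overlapped any merged Rad21 site. Merged sites join all libraries of an antibody, and 59 of the 84 NIPBL sites came from 1 library. The genome's share of such overlaps was not computed, so these counts are descriptions.

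Limma called 22 of 41 flank bins between the antibodies in unstimulated spleen, 8 with more NIPBL and 14 with more Rad21, where 46.6% of tested bins in the genome were called (18.2% and 28.4%). In stimulated spleen it called 25 of 41, 12 and 13, where 51.1% were called (22.3% and 28.9%). In CH12F3 it called 14 of 33 without stimulation, 2 and 12, where 47.3% were called (11.4% and 35.9%), and 10 of 33 with it, 1 and 9, where 44.8% were called (9.19% and 35.6%). The share called was above the background in spleen and below it in CH12F3, and these differences from it were not tested. The splenic NIPBL lists name no control and the Rad21 lists do, so antibody and control cannot be told apart in spleen.

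Top peaks of NIPBL without top peaks of Rad21 were found in several bins. Here too a covered percent of 0 means that no top peak was listed, not that the protein was absent. The bin chr12:114230001-114240000, with NIPBL site 63 (chr12:114237877-114239935), was covered by NIPBL to 17.5% ± 3.30 in unstimulated and 16.9% ± 3.33 in stimulated spleen (n = 3 each), and by Rad21 to 0% in all 6 splenic libraries (limma adjusted p = 6.13e-05 and 7.09e-05). The bin chr12:113880001-113890000, with NIPBL site 18, was covered by NIPBL to 12.5% ± 1.02 and 13.9% ± 1.30 and by Rad21 to 0% (limma adjusted p = 1.23e-05 and 7.01e-06). The bin of NIPBL site 26, chr12:113930001-113940000, had top peaks of NIPBL and none of Rad21 in all 4 of these comparisons. NIPBL covered 7.48% ± 1.44 and 9.18% ± 1.74 in spleen (n = 3 each) and 15.0% ± 9.16 and 13.2% ± 7.40 in CH12F3 (n = 2 each). Bins with top peaks of Rad21 alone in stimulated spleen included chr12:114110001-114120000, with Rad21 sites 25 and 26. It was covered to 12.4% ± 4.86 by Rad21 and to 0% by NIPBL (limma adjusted p = 0.00120). All deposited NIPBL peaks of stimulated spleen covered 28.1% to 38.4% of the flank.

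Both proteins met at the bin chr12:114390001-114400000, with Rad21 site 38 and NIPBL site 79. In stimulated spleen NIPBL peaks covered 20.1%, 36.7% and 41.5% of it and Rad21 peaks 6.17%, 7.68% and 9.66% (limma adjusted p = 0.00162). Every NIPBL library lay above every Rad21 library, and the share of bins in the genome with such an order is not given here. NIPBL was called higher in 22.3% of tested bins in the genome. Median peak widths were 2046 bp at NIPBL site 79 and 504 bp at Rad21 site 38, so covered percent partly reflects width. In unstimulated spleen NIPBL site 79 ranked 2691, 1498 and 1639, and it was the best NIPBL site of the flank in 2 of these 3 libraries.

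**Figure D4:**
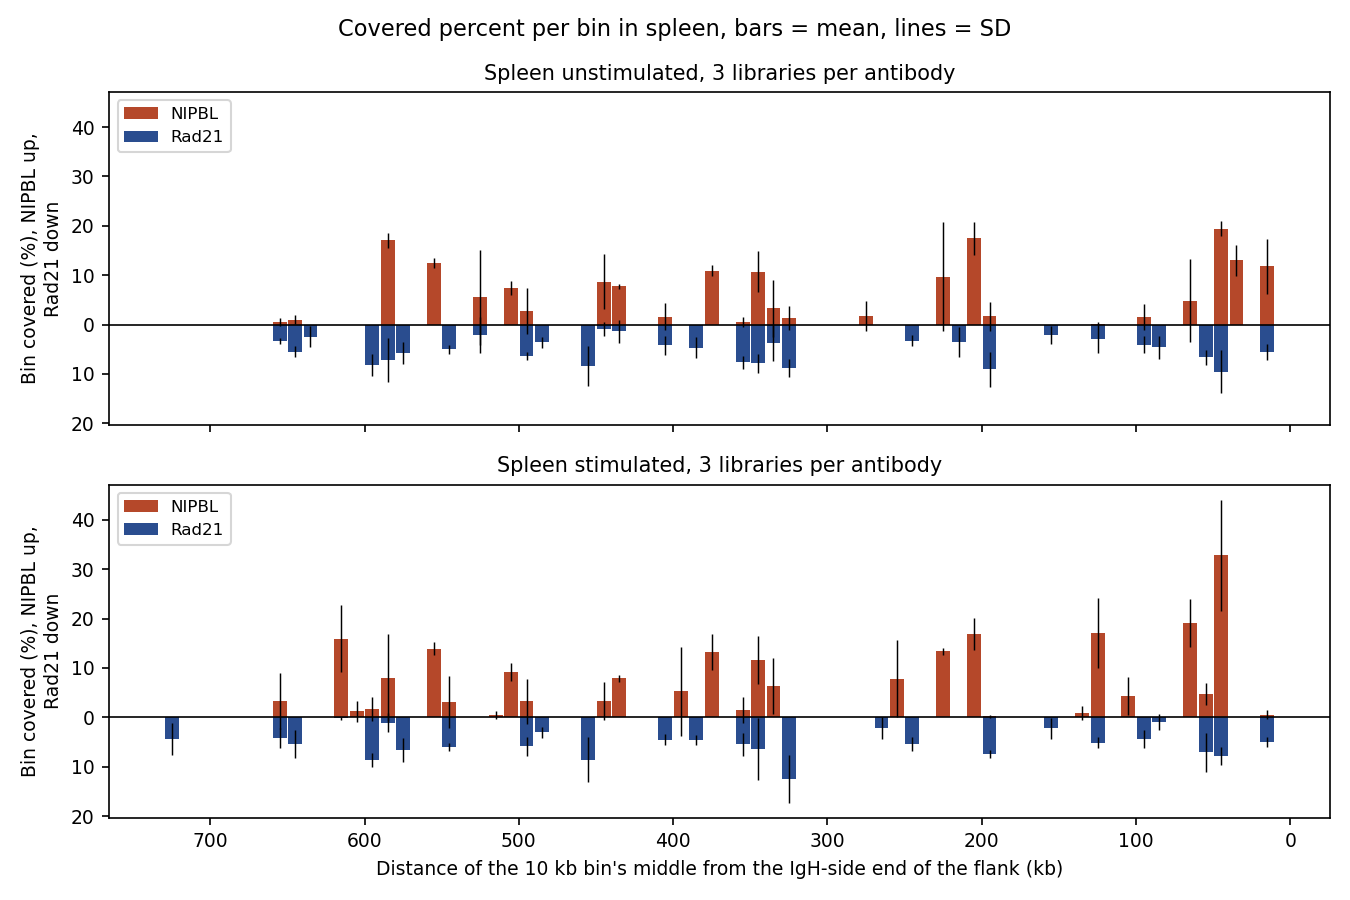
Mean percent of each 10 kb bin covered by NIPBL peaks (bars upward) and Rad21 peaks (bars downward) in unstimulated and stimulated spleen, with SD lines over 3 libraries per antibody. The horizontal axis is the distance of the bin's middle from the IgH-side end of the flank in kb, and bins with no bar were covered in no library shown or not tested. NIPBL reaches 32.8% ± 11.3 in the bin of sites 38 and 79 in stimulated spleen.

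Summed over the flank, no difference in coverage between groups passed the test, and with so few libraries none could. Rad21 covered 2.18%, 2.23% and 1.60% of the flank in unstimulated spleen, 1.39%, 2.43% and 1.68% in stimulated spleen, 1.60%, 1.41% and 1.66% in unstimulated CH12F3, 1.63%, 1.15%, 1.13% and 0.897% in stimulated CH12F3 and 0.758%, 0.828% and 0.896% in i3CBEs. The i3CBEs libraries lay under the 4 stimulated CH12F3 libraries, the nearest at 0.896% and 0.897% (0.828% ± 0.0691, n = 3, against 1.20% ± 0.308, n = 4, two-sided exact permutation p = 0.0571, adjusted over 13 comparisons 0.433). The i3CBEs peaks were the shorter ones, and with lists matched for covered length the difference turned from -0.372 to 0.102 points. Relative to the share of the genome covered by the same peaks, the flank stood at 3.63 to 3.81 in i3CBEs and 2.77 to 4.10 in stimulated CH12F3, and these ranges overlapped. NIPBL covered 3.29%, 1.87% and 1.91% in unstimulated and 2.28%, 3.78% and 3.35% in stimulated spleen (exact permutation p = 0.2, adjusted 0.433). None of the 13 comparisons passed. The smallest p possible is 0.1 with 3 libraries against 3 and 0.0286 with 4 against 3. Adjusted over the 13 comparisons, even the smallest possible values would not fall under 0.05. The test therefore could not show a difference, and its outcome says nothing on whether coverage differed.

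**Figure D5:**
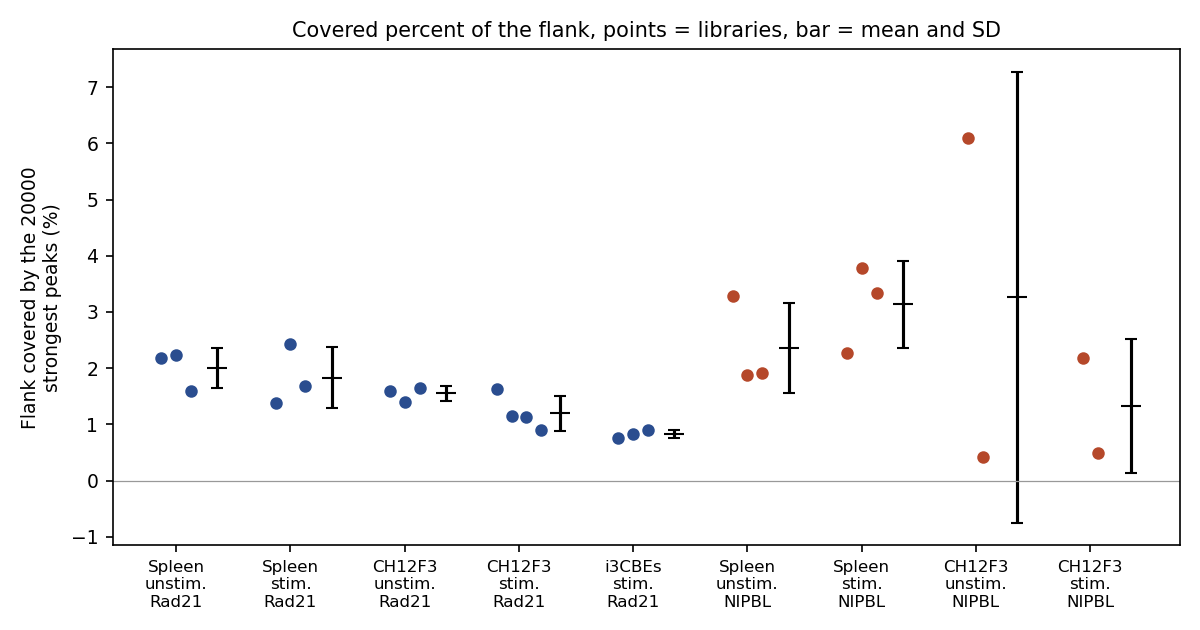
Percent of the 740 kb flank covered by the 20000 strongest peaks, 1 point per library, for 5 Rad21 and 4 NIPBL groups, with the mean and SD beside each group. The 2 unstimulated CH12F3 NIPBL libraries lie apart at 6.10% and 0.425%, and the 3 i3CBEs Rad21 libraries lie between 0.758% and 0.896%.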

How the data were processed

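Bowtie2, MACS2 and the build mm9 are named per the submitters' processing notes; versions and settings were not given in the sources used here. Each of 26 libraries has its own list. Per peak the authors deposited a fold enrichment (a ratio), -log10 p, -log10 q and a score, which served to order or describe the peaks of that list alone. Without read counts, depth is unknown. The 5 inputs were not analysed here.

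On 21 chromosomes, the 20000 peaks of highest -log10 p were kept per list. The percent of each 10 kb bin they cover was tested over the genome with limma (version 3.58.1; R version 4.3.3; eBayes with trend; bins covered in 2 or more libraries; Benjamini-Hochberg, 0.05). Fits hold both groups of a comparison of stimulation, or all groups of the cells or antibody compared. Flank totals were tested by exact permutation, over every split of the libraries into groups of the same sizes (Python version 3.11.15). Named are sites held by 3 or more libraries, called bins and, where none was called, up to 3 leading bins whose groups do not overlap. Other sites were named after their values were seen. Members, lists and comparisons were chosen with earlier results of these data known. Replicate numbers come from titles. Same-numbered Rad21 CH12F3 samples deviated together between stimulated and unstimulated groups (correlations 0.417, 0.642 and 0.371), which was read as pairing. No other comparison was read as paired, though the correlation was 0.313 for NIPBL in CH12F3. The main fit and the permutation test left the Rad21 CH12F3 samples unpaired. Their pairing entered only as the block among the alternatives, which also joined the i3CBEs libraries by number. Alternatives were other numbers of peaks, all peaks, a -log10 q minimum, equal covered length, the block and leaving out libraries.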

Additional observations from a re-analysis of the deposited data

Results flagged for a closer look

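In stimulated CH12F3, 1 of 4 Rad21 libraries lay far from the others in 2 bins of the flank. In the bin chr12:114310001-114320000 the covered percents were 4.75, 4.61, 4.43 and 2.83, with replicate 4 the low one, and its gap to the nearest library was 0.833 of the whole range. In the bin chr12:114380001-114390000 they were 3.65, 3.62, 2.61 and 3.65, with replicate 3 the low one, and the gap was 0.971 of the range. Of 26 sets of 4 libraries examined this way, chance alone would give about 1.3, since 1 in 20 passes. The cause was not tested.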

How the results depend on the processing

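Without read counts the lists limit what can be seen: a covered percent of 0 means that no strong peak was listed, and NIPBL in CH12F3 rests on 2 unlike libraries a group. The 13 differences in flank coverage, none of which could pass the test, kept their sign under most settings. They turned with 10000 peaks for stimulation of NIPBL (-0.139 points) and Rad21 (0.0666) in spleen and for unstimulated spleen minus CH12F3 NIPBL (0.161). With all deposited peaks Rad21 in stimulated spleen turned to 2.03, and with a -log10 q of 5 or more stimulated spleen minus CH12F3 NIPBL turned to -3.07. With equal covered length the turned differences were 0.0578 for stimulation of NIPBL in CH12F3, 0.137 for stimulation of Rad21 in spleen, 0.102 for i3CBEs minus CH12F3, -0.607 for stimulated spleen minus CH12F3 NIPBL, and -0.374 and -0.564 for NIPBL minus Rad21 in unstimulated and stimulated spleen. Leaving out 1 library gave -4.77 to 0.906 for stimulation of NIPBL in CH12F3 (positive without unstimulated replicate 1), -0.467 to 0.0522 for stimulation of Rad21 in spleen (without stimulated replicate 1), -3.74 to 1.93 for unstimulated spleen minus CH12F3 NIPBL (without CH12F3 replicate 1), and, for NIPBL minus Rad21, -0.111 to 0.596 in unstimulated spleen, -1.13 to 4.54 in unstimulated CH12F3 and -0.710 to 0.973 in stimulated CH12F3, negative without NIPBL replicate 1 in each. The cause was not tested.

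Numbers of called flank bins moved more. For stimulation of NIPBL in spleen, the 1 call became 3 with bins covered in 1 or more libraries, 0 with the replicate block, 10000 peaks, 40000 peaks or the -log10 q minimum, 11 with all peaks, 2 with equal covered length and 0 to 3 without 1 library (0 without unstimulated replicate 3, 2 without unstimulated replicate 1, 3 without stimulated replicate 2). For stimulation of Rad21 in CH12F3 the 1 call became 0 with the replicate block and with each other choice of peaks, and 0 to 1 without 1 library (0 without stimulated replicate 1, 2 or 3 or unstimulated replicate 3). For Rad21 in spleen 0 to 2 were called without 1 library (2 without unstimulated replicate 3). For i3CBEs 1 was called with the -log10 q minimum and 1 with equal covered length. Unstimulated spleen minus CH12F3 Rad21 had 0 calls with all peaks, 3 with the -log10 q minimum and 3 to 5 without 1 library (3 without any of the CH12F3 libraries). Stimulated, it had 1 with 40000 peaks, 11 with all peaks, 0 with the -log10 q minimum and 1 with equal covered length. Unstimulated spleen minus CH12F3 NIPBL had 0 with the replicate block, 7 with all peaks, 0 with equal covered length and 1 to 6 without 1 library (6 without CH12F3 replicate 2, 3 without splenic replicate 2, 2 without CH12F3 replicate 1). Stimulated, it had 0 with the replicate block and with each other choice of peaks, and 0 to 1 without 1 library (0 without splenic replicate 1 or 3 or CH12F3 replicate 2). A lone NIPBL library left in CH12F3 was assumed to vary like the other groups. NIPBL minus Rad21 gave 12, 13 and 13 in unstimulated spleen with 40000 peaks, the -log10 q minimum and equal covered length, and 16, 60, 11 and 16 in stimulated spleen with 40000 peaks, all peaks, the -log10 q minimum and equal covered length. In unstimulated CH12F3 it gave 6, 74, 39 and 8, and in stimulated CH12F3 5, 73, 37 and 6, with 10000 peaks, all peaks, the -log10 q minimum and equal covered length, and 9 to 21 without 1 unstimulated library (9 without NIPBL replicate 1). The replicate block moved no other number of calls by over 1.5 times. Outside Rad21 in CH12F3 the samples share only a number, apart from NIPBL in CH12F3. There both replicate 1 lists named no control and both replicate 2 lists named one.

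Bins that turned were the bin of NIPBL site 80 with all peaks in the stimulation of spleen (12.1) and, for unstimulated spleen minus CH12F3, with 40000 peaks (-1.79), all peaks (-14.8) and the -log10 q minimum (-4.74). The bin of Rad21 site 33 turned with 10000 peaks (2.87), all peaks (1.53) and equal covered length (2.87), the bin of Rad21 site 4 with 40000 peaks (0.273) and all peaks (5.92), and the bin of NIPBL site 34 with the -log10 q minimum (-3.36). When 50% of a peak had to be shared, Rad21 sharing was 78.1%, 77.3%, 88.5% and 85.2% within unstimulated and stimulated spleen and unstimulated and stimulated CH12F3, and 63.4% of splenic Rad21 peaks, against 78.2%, were found in CH12F3. NIPBL sharing was then 56.7% within stimulated spleen and 18.6% within stimulated CH12F3, and NIPBL peaks under Rad21 fell to 20.5%, 4.16%, 7.38% and 0.893% in the same order of groups. Chosen after seeing the data, other numbers of peaks gave 3 (10000) and 22 (40000) sites held by all Rad21 libraries and 2 (40000) held by all NIPBL libraries. With 20000 peaks, the latter was 1 to 2 without 1 library (2 without stimulated splenic replicate 1 or either CH12F3 replicate 2).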
